A study of Zea mays with 10 samples.

Results

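H99 is a maize inbred line, and its cross with the inbred B73 gives an F1 hybrid with strong heterosis, the better growth and yield of a hybrid than of its parents. The comparison described here set immature ears of that hybrid against immature ears of H99 on the 5 arrays chosen because their titles name H99 and F1, out of 10 arrays in all. On each array, complementary DNA from the hybrid and from H99 was labelled with different dyes and hybridised together, and each spot gave the log2 ratio of both channels. On 3 arrays, called forward, the hybrid carried Cy3 and H99 Cy5, and on 2 arrays, called reversed, H99 carried Cy3 and the hybrid Cy5. The other 5 arrays paired the same hybrid with B73 ears, also as 3 forward and 2 reversed arrays.

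An immature ear carries the inflorescence meristems that form spikelets and florets, so its RNA is rich in transcripts of dividing cells, such as those of tubulins, histones and translation factors. Gene expression in a hybrid is often set against each parent, because a transcript can lie at the level of one parent, between both, or outside their range. A dye swap serves to separate a difference between genotypes from an effect of the dye, since only one of the 2 follows the genotype when the dyes are exchanged.

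All ears, of H99, of B73 and of the hybrid, were taken at stage V15 from field-grown plants, with silks and ear tips removed, and each genotype was a bulk of 10 plants. Poly(A) RNA came from 1 mg of total RNA of at least 3 extractions, and 1 µg went into each labelling. The arrays of a set were therefore separate labellings of the same pools, and the p-values cover only how labellings and hybridisations varied, not how plants did. Ratios carry no level, so the tissue could not be checked against its markers, and fewer cells of a type and less RNA per cell cannot be told apart.

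The arrays held 16200 spots in 5400 clones of 3 neighbouring spots. Of these, 811 clones carried 1 gene name, for 213 genes, and 4589 carried none. On the H99 arrays 0.253% to 2.31% of the spots had no value, and 5357 clones could be tested, 807 of them named. The design text writes its ratios as F1 against inbred but also calls the hybrid the control channel, so the direction of the deposited ratio is not settled. Values are therefore given by sign, with no statement on which genotype was higher. Whether the reversed arrays had been turned to the direction of the forward ones before deposit is not stated either. If they had been, a difference between genotypes would have one sign in both orientations, and if they had not, it would have opposite signs. These readings cannot be told apart, so each orientation is given on its own.

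The ratios against H99 were small, and what repeated within one dye orientation was mostly not seen in the other. Over clones the mean of the 5 arrays had a median of -0.0021 and an SD of 0.112 in log2, and ran from -0.61 to 0.50. The median size of a clone's mean corresponded to 1.05-fold, and 10 clones lay beyond 0.5 on either side. The H99 arrays spread less than the B73 arrays, with an SD over clones of 0.180 ± 0.024 against 0.277 ± 0.055 (SD, n = 5 arrays each; exact permutation test over arrays, two-sided, p = 0.0159, where 0.00794 is the smallest it can give). Taken as the median absolute deviation the difference did not pass (exact permutation p = 0.0556).

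Within an orientation the arrays resembled each other. Across clones, which are not independent replicates, forward arrays correlated with each other at r = 0.335 to 0.62 and the reversed pair at r = 0.568. A forward and a reversed array correlated at r = -0.169 to 0.217, and the forward mean and the reversed mean at r = 0.031 over 5357 clones (Spearman's rho = 0.022). Array 1 was the forward array nearest to the reversed ones, with r = 0.217 and 0.177, and array 3 the farthest, with r = -0.063 and -0.169. For the 70 genes with at least 3 clones the forward and reversed gene means correlated at r = 0.116. On the B73 arrays the same correlation over clones was 0.557. The clones in each correlation share their array, its labelling and its normalization.

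**Figure D1:**
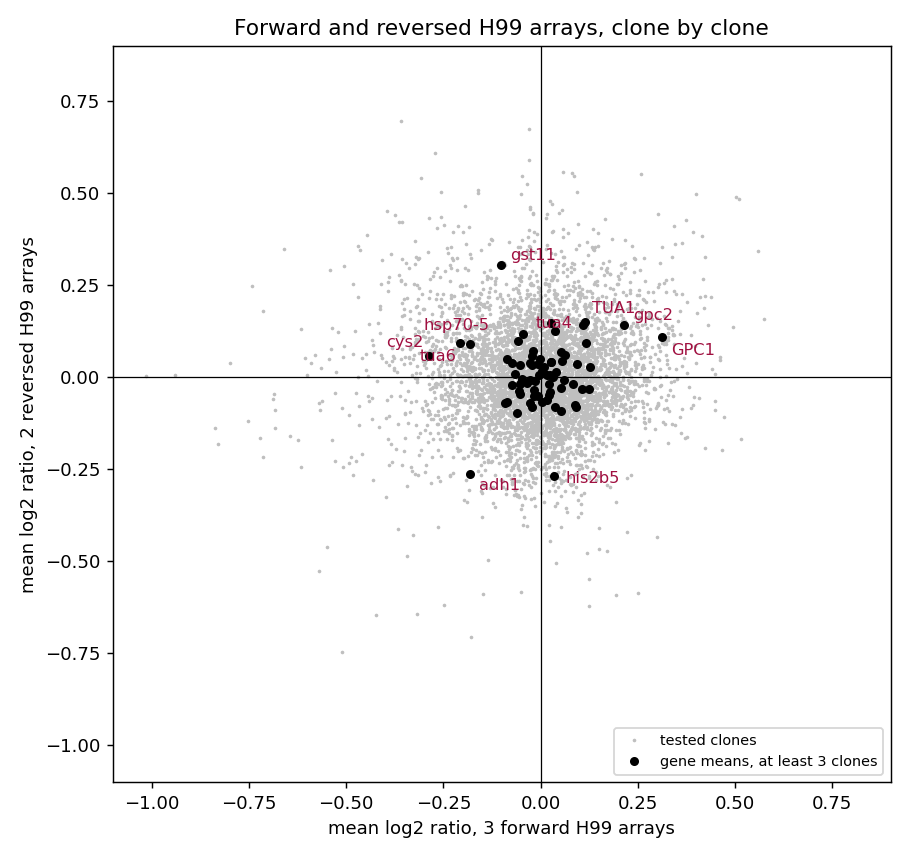
Mean log2 ratio of each clone on the 3 forward H99 arrays (horizontal axis) and on the 2 reversed H99 arrays (vertical axis). Grey points are the 5357 tested clones, and black points the means of the 70 genes with at least 3 clones, some of them named. The cloud has almost no slope (r = 0.031), GPC1 and gpc2 lie in the upper right, adh1 in the lower left, and hsp70-5, cys2 and tua6 in the upper left.

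The plot of forward against reversed means shows the clones filling all 4 quadrants, with 49.1% of them of one sign in both orientations. With limma and an adjusted p of 0.05 as the threshold, 709 clones passed on the forward arrays (13.2%), 314 positive and 395 negative. On the reversed arrays 81 passed (1.51%), 62 positive and 19 negative. Only 2 arrays stand behind the reversed mean. Of the clones that passed in one orientation, 26 passed in both, which is 3.67% of the forward and 32.1% of the reversed calls, with the same sign in 16 and opposite signs in 10. The forward mean and the reversed mean differed in 231 clones (4.31%), 59 with a higher value on the forward arrays and 172 with a lower one. These splits moved with the scaling of the arrays: with quantile normalization 401 clones passed as positive and 414 as negative on the reversed arrays, and 415 and 491 for the difference, and with all arrays scaled to one spread 428 and 326, and 315 and 484. The mean of all 5 arrays passed for 66 clones (1.23%), 38 positive and 28 negative, and 63 of these had one sign on every array. Without array 1 the mean passed for 14 clones, without array 2 for 19, and without array 3 for 32, and for 101 without B73 array 3, which enters the estimate of the spread. The forward calls numbered 459 without array 1, 224 without array 2 and 343 without array 3. The reversed calls numbered 5 without array 4 and 5 without array 5, which leaves 1 reversed array, and 124 without array 1. The difference passed for 77 clones without array 2, 100 without array 3, 13 without array 4 and none without array 5 in limma (638 at an unadjusted p under 0.05). With the reversed arrays turned the mean of all 5 passed for 41 clones, 4 positive and 37 negative, and none of them was among the 66.

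Gene means, the average over all clones of a gene on each array, gave 6 calls among 213 genes for the mean of the 5 arrays (2.82%), 38 for the forward arrays (17.8%), 7 for the reversed arrays (3.29%) and 24 for the difference of the orientations (11.3%). Those 6 were positive for the glyceraldehyde-3-phosphate dehydrogenases GPC1 and gpc2, for HD6, for LOC542610 and for the alpha-tubulin tua4, and negative for the alcohol dehydrogenase adh1. With all arrays scaled to one spread the mean passed for 12 genes as positive and 14 as negative, and with quantile normalization for 13 and 15, and the 6 were among them each time. For the reversed arrays, with 5 positive and 2 negative, these settings gave 21 and 11, and 19 and 12. The 6 genes are described first, with the other genes of their lists.

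GPC1 and gpc2 encode cytosolic glyceraldehyde-3-phosphate dehydrogenase, the enzyme of glycolysis that makes NADH. GPC1, with 10 clones, read 0.43, 0.33 and 0.19 on the forward arrays 1 to 3 and 0.12 and 0.09 on the reversed arrays 4 and 5. All its forward arrays lay above its reversed ones, and every array was positive. The mean was 0.23 ± 0.14 (SD, n = 5 arrays; limma adjusted p = 0.0222). On the forward arrays alone it was 0.31 (SE 0.048, adjusted p = 0.00316) and on the reversed ones 0.11 (SE 0.059, adjusted p = 0.438). Of its 10 clones, 9 were positive on the forward arrays and all 9 passed there, against 5.86% of all clones passing with this sign. On the reversed arrays 9 were also positive and none passed, where only 1.51% of all clones did.

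The 7 clones of gpc2 averaged 0.31, 0.21 and 0.12 on the forward arrays and 0.15 and 0.14 on the reversed ones. Here the orientations overlapped, since forward array 3 lay below both reversed arrays. The mean was 0.19 ± 0.08 (SD, n = 5; limma adjusted p = 0.0222), and all 7 clones were positive on the reversed arrays and 6 on the forward ones. Another cytosolic form, gpc3, had 2 clones and lay near 0 on every array, between -0.05 and 0.02, averaging -0.01 ± 0.03 (SD, n = 5; limma adjusted p = 0.809). Related gene copies can share hybridisation signal, so values of single members of the dehydrogenase and tubulin families are uncertain.

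Alcohol dehydrogenase, encoded by adh1, regenerates NAD in fermentation and is known in maize for its induction under low oxygen. Its 4 clones averaged -0.33, -0.06 and -0.15 on the forward arrays and -0.30 and -0.23 on the reversed ones. Every array was negative and the orientations overlapped. The mean was -0.21 ± 0.11 (SD, n = 5; limma adjusted p = 0.0222), and adh1 was the 1 gene that passed with the same sign in both orientations, at -0.18 forward (adjusted p = 0.0305) and -0.26 reversed (adjusted p = 0.0489). Clone 1874 was the adh1 clone that passed in both orientations, with -0.45, -0.22 and -0.36 on the forward arrays and -0.45 and -0.52 on the reversed ones. It was also the 1 adh1 clone that passed for the mean (-0.40 ± 0.12, SD, n = 5; limma adjusted p = 0.00607), while clone 4218 passed on the forward arrays (-0.28, adjusted p = 0.027) and not on the reversed ones (-0.29, adjusted p = 0.148). On the reversed arrays each of the 4 adh1 clones was negative, and on the forward arrays 3 were.

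The other genes of glycolysis and fermentation did not pass as means. The enolases eno1 and eno2, which make phosphoenolpyruvate, averaged -0.04 ± 0.06 (limma adjusted p = 0.527) and 0.02 ± 0.11 (limma adjusted p = 0.809; SD, n = 5 each). All 4 clones of eno2 were positive forward and negative reversed, and all 5 clones of eno1 were negative reversed. Over the list of 8 genes and 34 clones, 14 clones passed as positive (41.2%) and 2 as negative (5.88%) on the forward arrays, against 5.86% and 7.37% of all clones, 9 of the positive ones from GPC1 and 4 from gpc2. On the reversed arrays 1 clone passed, as negative (2.94%, against 1.51% of all clones passing with either sign). The median clone stood at 0.07 forward and 0.01 reversed, against 0.00 in each orientation over all clones.

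HD6 was measured by 1 clone. It read 0.40, 0.40 and 0.26 on the forward arrays and 0.13 and 0.18 on the reversed ones, all positive, with the forward arrays above the reversed. Its mean was 0.27 ± 0.12 (SD, n = 5; limma adjusted p = 0.0222), the highest of the 213 genes. With the median of the neighbouring rows removed, which takes out what nearby spots share, it was 0.11 and did not pass (adjusted p = 0.238). LOC542610, measured by 2 clones and given no role by the annotation, read 0.34, 0.26 and 0.30 forward and 0.05 and 0.04 reversed. Its orientations lay apart, and the difference between them passed (0.25, adjusted p = 0.0225), as did its mean of 0.20 ± 0.14 (SD, n = 5; limma adjusted p = 0.0491).

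Alpha-tubulins, which pair with beta-tubulins to build the microtubules of the spindle and cell cortex, were the family with the most clones, 115 in 5 genes. The 57 clones of tua4 averaged 0.16, 0.12 and 0.05 forward and 0.17 and 0.12 reversed. The 30 clones of TUA1 averaged 0.17, 0.14 and 0.04 forward and 0.19 and 0.11 reversed. Both genes were positive on every array, and in both the lowest was array 3. The mean of tua4 was 0.12 ± 0.046 (SD, n = 5; limma adjusted p = 0.047) and that of TUA1 0.13 ± 0.059 (SD, n = 5; adjusted p = 0.0529). Of the tua4 clones 48 were positive forward and 51 reversed, and of the TUA1 clones 24 and 28.

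The remaining members had lower means, which did not pass. Of the 5 alpha-tubulin genes all had a positive reversed mean, 3 a positive forward mean and 4 a positive mean of all arrays. For tua3, with 16 clones, the mean was 0.07 ± 0.06 (limma adjusted p = 0.318), and for tua5, with 8 clones, 0.02 ± 0.10 (limma adjusted p = 0.813; SD, n = 5 each). The 4 clones of tua6 averaged -0.16, -0.19 and -0.19 on the forward arrays and 0.09 and 0.09 on the reversed ones. The orientations of tua6 lay on opposite sides of 0, and its forward mean (-0.18, adjusted p = 0.0144) and the difference (-0.27, adjusted p = 0.0256) passed. The forward call of tua6 ended with the median of neighbouring rows removed (-0.08, adjusted p = 0.0788), without array 2 or array 3, and in one table with the unnamed clones (adjusted p = 0.0561). The call of the difference ended in that table too (adjusted p = 0.112), and without any 1 of the H99 arrays. Over the 115 clones the median was 0.11 forward and 0.14 reversed, with 87 and 104 positive. On the forward arrays 16 passed as positive (13.9%, against 5.86% of all clones) and 5 as negative (4.35%, against 7.37%), and on the reversed ones 2 passed (1.74%, against 1.51%).

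**Figure D2:**
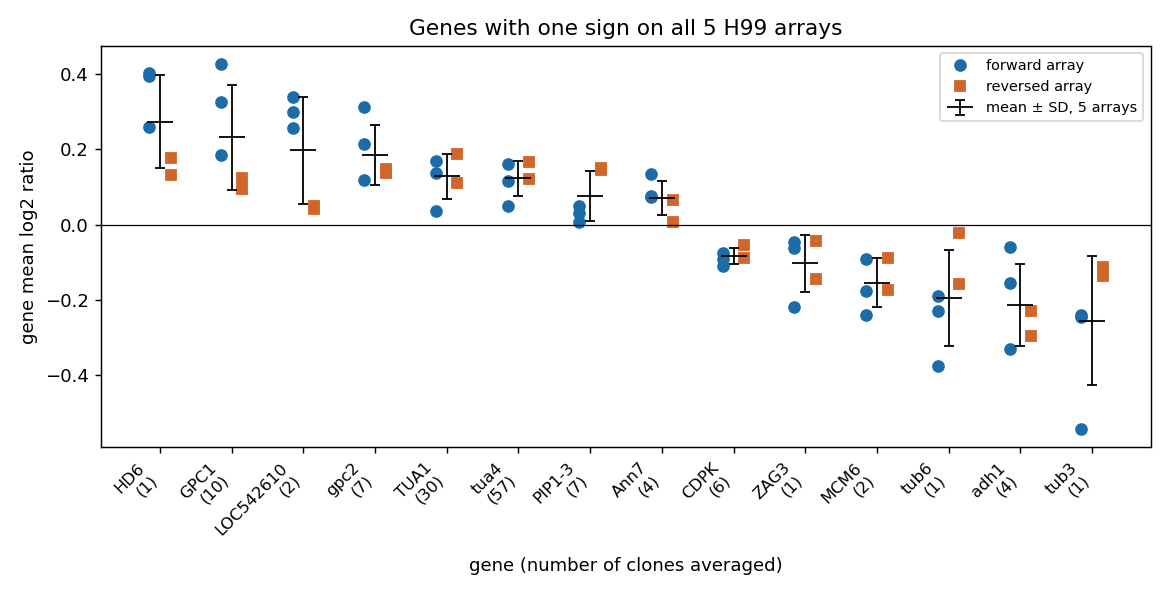
Gene mean log2 ratio on each H99 array for 14 genes of one sign on all 5 arrays, with the number of clones in brackets. Blue circles are the 3 forward arrays, orange squares the 2 reversed arrays, and the black bars the mean ± SD of the 5 arrays. HD6, GPC1 and LOC542610 have their forward arrays above the reversed ones, while the arrays of gpc2, TUA1, tua4 and adh1 mix.

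In all, 46 genes had one sign on all 5 arrays (21.6%), 23 positive and 23 negative. The plot of one-sign genes also holds genes whose mean did not pass, such as MCM6, a subunit of the helicase that opens DNA for replication, with -0.24, -0.09 and -0.18 forward and -0.17 and -0.09 reversed. Its mean was -0.15 ± 0.06 (SD, n = 5; limma adjusted p = 0.0529), while its forward mean of -0.17 passed (adjusted p = 0.0319). The calcium-dependent kinase CDPK, with 6 clones, varied least in that plot, at -0.08 ± 0.021 (SD, n = 5; adjusted p = 0.132). The 7 clones of the water channel PIP1-3 were all positive for the mean, at 0.08 ± 0.07 (SD, n = 5; adjusted p = 0.25).

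The 6 calls for gene means depended on single arrays and on which features were fitted and adjusted together. Without array 1 none of the 213 genes passed in limma (26 at an unadjusted p under 0.05), and without array 2 only adh1. With gene means fitted and adjusted in one table with the 4550 unnamed clones only HD6 passed (limma adjusted p = 0.0412, against 0.067 for GPC1, 0.0735 for adh1, 0.0989 for gpc2, 0.109 for LOC542610 and 0.25 for tua4). That fit also changed the estimate of the spread, and 30 genes had an unadjusted p under 0.05, against 39 in the main fit. With only the 5 H99 arrays in the fit none of the 6 passed (adjusted p = 0.0827 to 0.106), nor with the replicate block (adjusted p = 0.0761 to 0.0965). The calls of tua4 and LOC542610 were the weakest, each ended by 14 of 23 alternatives, among them leaving out any 1 of the B73 arrays. For GPC1, gpc2, HD6 and adh1 6 of the 23 ended the call.

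With the reversed arrays turned, the other reading of the deposited ratios, none of the 6 passed and 7 other genes did, all negative, where the deposited values gave 5 positive and 1 negative. They were BM1 (-0.31, limma adjusted p = 0.0118), PIP1-1 (-0.25, adjusted p = 0.0167), Pti1d (-0.36, adjusted p = 0.0167), lox3 (-0.32, adjusted p = 0.0167), LOC541824 (-0.17, adjusted p = 0.034), hsp70-5 (-0.16, adjusted p = 0.0357) and CPK2 (-0.23, adjusted p = 0.0391). LOC541824 was named after its values were seen, and the others are described with the opposed genes.

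Of the 38 genes that passed on the forward arrays, 35 did not pass on the reversed ones, where only 7 of all 213 genes passed (3.29%). By sign, 15 of the 38 were positive and 23 negative, and 27 were measured by 1 clone. The reversed mean had the same sign in 18 of them (47.4%), against 50.2% of all genes. Without array 2, 18 genes passed forward. The lowest forward mean was that of LOC606466, a gene of 1 clone, with -0.49, -0.70 and -0.88 forward and -0.02 and -0.10 reversed. Every array was negative, but the forward and reversed arrays lay far apart, with a forward mean of -0.69 (limma adjusted p = 0.00316) and a difference of -0.63 (adjusted p = 0.0416).

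The highest was NIP2-3, an aquaporin of the NOD26-like group, with 0.37, 0.45 and 0.38 forward and -0.02 and 0.09 reversed. Its forward mean of 0.40 passed (adjusted p = 0.00114), and so did the difference of 0.36 (adjusted p = 0.0157). The beta-tubulins tub3 and tub6, partners of the alpha-tubulins, had 1 clone each and were negative on all arrays. For tub3 the values were -0.54, -0.24 and -0.24 forward and -0.11 and -0.14 reversed, with a forward mean of -0.34 (adjusted p = 0.00503). For tub6 they were -0.38, -0.19 and -0.23 forward and -0.16 and -0.02 reversed, with a forward mean of -0.26 (adjusted p = 0.00482). With the median of neighbouring rows removed the forward mean of tub6 became 0.11 and did not pass (adjusted p = 0.284). That setting ended 13 of the 32 forward calls among the genes described, among them those of tub6, of ADF3 (0.03), an actin-depolymerising factor, of hdt102 (-0.03), a plant histone deacetylase, and of pcna2 (-0.04), a sliding clamp of DNA replication.

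Among HMG and other chromatin proteins 3 of 18 genes passed forward, all negative. Of the translation factors 2 of 11 genes passed and of the ribosomal proteins 1 of 6, all positive. Each of these shares was close to the 17.8% of all genes passing with either sign. Clones were less one-sided. Of the 51 clones of HMG and other chromatin proteins 5 passed forward as positive (9.8%, against 5.86% of all clones). Another 4 passed as negative (7.84%, against 7.37%). The deacetylase hdt102 had a forward mean of -0.23 (adjusted p = 0.0074), the SET-domain histone methyltransferase sdg110 of -0.22 (adjusted p = 0.00983) and the HMG-box protein MNB1b of -0.19 (adjusted p = 0.0305). The initiation factor tif5A was positive, at 0.17 (adjusted p = 0.0251), as were the ribosomal protein gene RPL10, at 0.15 (adjusted p = 0.0317), and the outer mitochondrial membrane channel vdac1b, at 0.20 (adjusted p = 0.0285). None of these 6 passed on the reversed arrays, where only 3.29% of all genes did. With the median of neighbouring rows removed the forward means of tif5A (0.11, adjusted p = 0.0943), RPL10 (0.09, adjusted p = 0.163) and MNB1b (-0.12, adjusted p = 0.0501) did not pass.

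Several genes lay on opposite sides of 0 in the forward and the reversed arrays. The clearest with many clones was hsp70-5, a chaperone of the HSP70 family that holds and refolds proteins. Its 22 clones averaged -0.18, -0.19 and -0.25 on the forward arrays and 0.15 and 0.04 on the reversed ones. The forward mean was -0.21 (SE 0.040, limma adjusted p = 0.0074), the reversed mean 0.09 (SE 0.049, adjusted p = 0.433), and their difference -0.30 (adjusted p = 0.0157). The call of the difference ended without any 1 of H99 arrays 2 to 5, and in one table with the unnamed clones (limma adjusted p = 0.0754). Of the clones, 20 were negative forward, 8 of them past the threshold against 7.37% of all clones with this sign, and 17 were positive reversed. The related hsp70-4, with 20 clones, had as many positive as negative clones forward and a forward mean of -0.02 (adjusted p = 0.711).

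**Figure D3:**
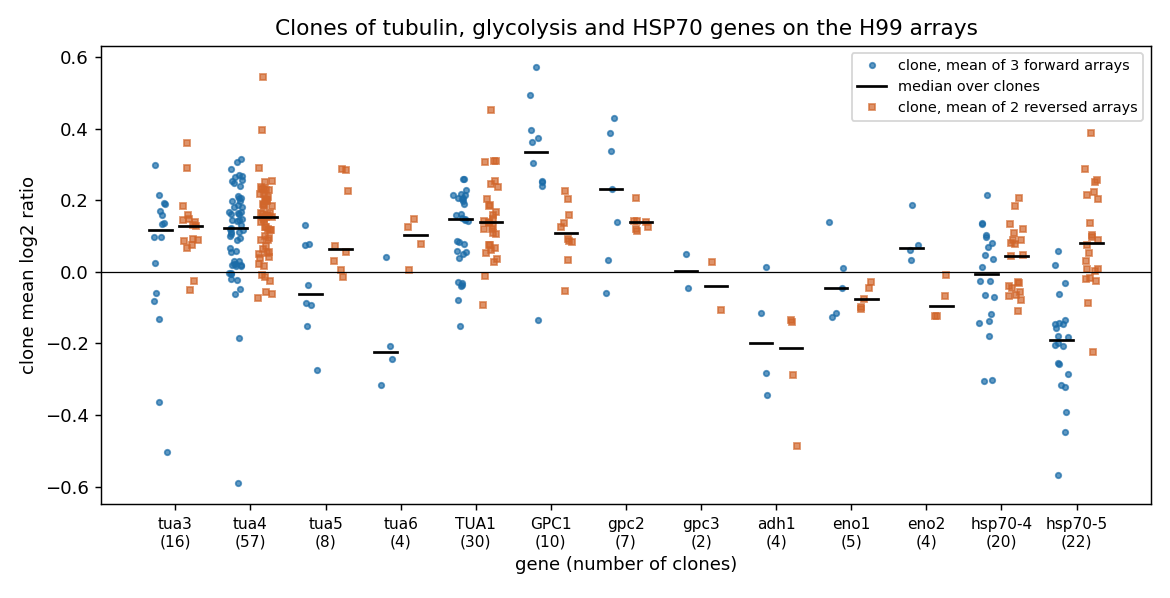
Mean log2 ratio of each clone of 13 genes of alpha-tubulin, glycolysis, fermentation and HSP70, with the number of clones in brackets. Blue circles are means of the 3 forward H99 arrays, orange squares means of the 2 reversed arrays, and black lines the medians over clones. The medians of tua4 and TUA1 lie above 0 in both orientations, those of GPC1 are higher forward than reversed, and those of tua6 and hsp70-5 are negative forward and positive reversed.

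Larger opposed values came from genes of 1 or 2 clones. The lipoxygenase lox3, of the pathway that makes oxylipins and jasmonates, read -0.15, -0.28 and -0.37 forward and 0.43 and 0.39 reversed. Both orientations passed, at -0.27 (limma adjusted p = 0.015) and 0.41 (adjusted p = 0.0196), with a difference of -0.67 (adjusted p = 0.00509). The brown midrib gene BM1, a cinnamyl alcohol dehydrogenase of lignin synthesis, read -0.15, -0.34 and -0.38 forward and 0.32 and 0.36 reversed. It too passed in both, at -0.29 (adjusted p = 0.00762) and 0.34 (adjusted p = 0.0327). These were the 2 genes called in both orientations with opposite signs. With the median of neighbouring rows removed neither passed on the reversed arrays (lox3 0.29, adjusted p = 0.06, and BM1 0.35, adjusted p = 0.0893), and BM1 no longer passed on the forward ones (-0.26, adjusted p = 0.0656).

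GIF1, a coactivator that works with growth-regulating factors, read -0.11, -0.14 and -0.15 forward and 0.39 and 0.30 reversed, with a difference of -0.48 (limma adjusted p = 0.00509). This came from 1 of its 2 clones, clone 1835, which read -0.23, -0.37 and -0.47 forward and 0.72 and 0.67 reversed and held the highest reversed mean of all tested clones, 0.70. The kinase gene Pti1d had the widest difference of any gene, -0.72 (adjusted p = 0.0157), with -0.12, -0.30 and -0.73 forward and 0.31 and 0.36 reversed. Its forward arrays differed more among themselves than its reversed ones. The water channel PIP1-1 and the calcium-dependent kinase CPK2 were likewise negative forward, at -0.27 (adjusted p = 0.00983) and -0.33 (adjusted p = 0.00385), and had reversed means of 0.21 and 0.08 that did not pass (adjusted p = 0.16 and 0.584).

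Among the opposed genes a histone ran the other way. The 4 clones of the H2B gene his2b5 averaged -0.05, 0.10 and 0.05 forward and -0.32 and -0.21 reversed, and the reversed mean passed (-0.27, limma adjusted p = 0.0196), with all 4 clones negative reversed. For the glutathione S-transferase gst11 the 3 clones averaged 0.02, -0.13 and -0.19 forward and 0.34 and 0.27 reversed, and the reversed mean passed (0.30, adjusted p = 0.0364). The protease gene LON2 read -0.12, 0.03 and -0.07 forward and 0.43 and 0.28 reversed, with a reversed mean of 0.35 (adjusted p = 0.0196). Without either of the reversed arrays no gene passed for the reversed mean (19 at an unadjusted p under 0.05 in each case), and without array 5 none passed for the difference (34 at an unadjusted p under 0.05). With the median of neighbouring rows removed 4 of the 7 reversed calls and 9 of the 21 calls of the difference among the genes described ended. The difference passed for 7 genes without array 2, for 5 without array 3 and for 4 without array 4.

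**Figure D4:**
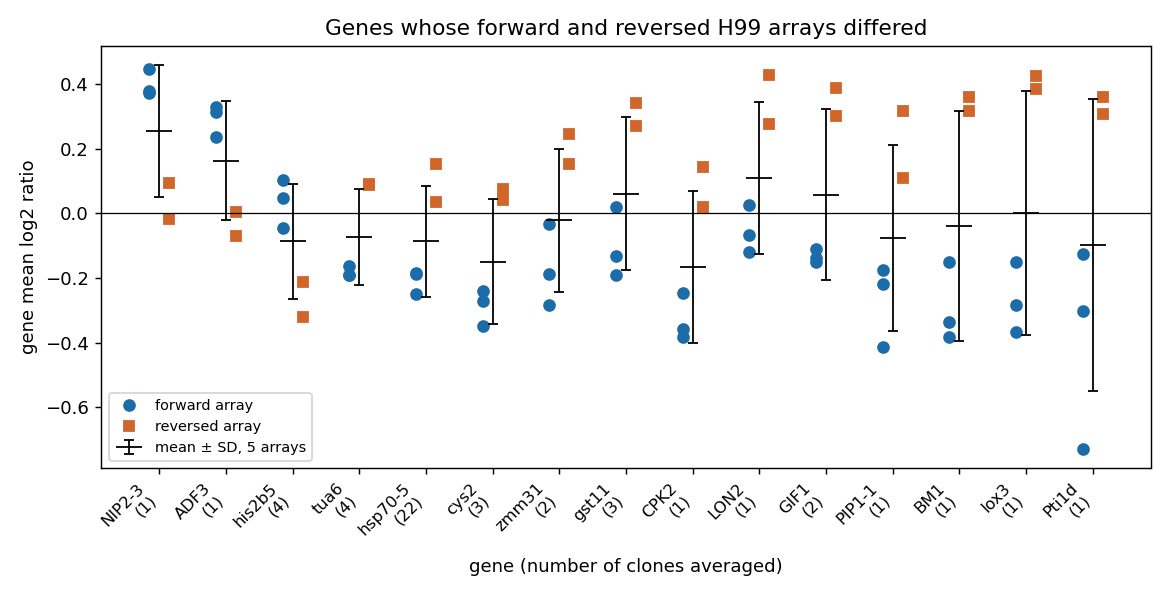
Gene mean log2 ratio on each H99 array for 15 genes whose forward and reversed means differed, with the number of clones in brackets. Blue circles are the 3 forward arrays, orange squares the 2 reversed arrays, and black bars the mean ± SD of the 5 arrays. From NIP2-3 to his2b5 the forward arrays are above the reversed ones, and from tua6 to Pti1d below them.

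The plot of opposed genes shows no overlap between the orientations in any of its 15 genes. Such separation was common in these arrays, at 46.0% of genes and 41.3% of clones, so that it does not set these genes apart without the test.

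Gene lists are described by the counts of their clones, which were not tested as lists. Of the 56 chaperone and heat shock clones, 35 were negative forward and 37 positive reversed, with 10 passing as negative (17.9%, against 7.37% of all clones) and 2 as positive (3.57%, against 5.86%) forward and none passing reversed, where 1.51% of all clones did. Most of the negative calls were the 8 of hsp70-5. Of the 28 clones from MADS-box genes and further inflorescence regulators, transcription factors of meristem and floral organ identity, 19 were negative forward and 20 positive reversed, and 3 passed forward, 10.7% against 13.2% of all clones. The homeobox gene kn1, which keeps meristem cells undifferentiated, stayed near 0 over 11 clones, at 0.02 ± 0.02 (SD, n = 5; limma adjusted p = 0.749), while ZAG1 and ZAG3, MADS-box genes of 1 clone each, were negative on all arrays, at -0.16 ± 0.05 and -0.10 ± 0.08 (SD, n = 5 each; adjusted p = 0.25 and 0.0959).

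Translation factors, 70 clones of 11 genes, were mixed forward, with 37 positive, and mostly negative reversed, with 52. Of these clones 3 passed forward (4.29%, against 13.2% of all clones) and none reversed, where 1.51% of all clones did. The elongation factor gene elfa3 gave 35 of these clones, with 27 negative reversed and a gene mean at -0.01 ± 0.05 (SD, n = 5; limma adjusted p = 0.818). Of 65 histone clones 44 were negative for the mean and none passed, against 1.23% of all clones, and the linker histone gene hon101 had 13 of 16 negative, with a mean of -0.03 ± 0.04 (SD, n = 5; adjusted p = 0.606). Genes of tissues other than the ear axis were few among the 213 named genes, and the 4589 clones with no name cannot be placed. The anther gene MFS18, the 1 named marker of pollen and anther, had a mean of 0.09 (adjusted p = 0.586). None of the 3 named genes of photosynthesis and plastid passed for the mean. One of these, ij1, singled out after its values were seen, was positive on all 5 arrays and passed forward (0.20, adjusted p = 0.00751), with a mean of 0.14 (adjusted p = 0.0609).

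Clones of one gene resembled each other to a limited degree on the H99 arrays. Among the 624 clones belonging to genes with 3 clones or more, the intraclass correlation, which is 1 when clones of a gene read alike, was 0.321 for the mean, 0.225 forward and 0.308 reversed. Without the alpha-tubulins it was 0.236, 0.204 and 0.205. Unequal clones showed in sam2, an S-adenosylmethionine synthetase gene, where clone 752 passed for the mean (0.30 ± 0.16, SD, n = 5; limma adjusted p = 0.0499) while the 32 clones together stood at 0.01 ± 0.05.

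Of the clones that passed for the mean, those farthest from 0 carried no gene name, and 6 of them, the 3 lowest and the 3 highest, are described. Clone 2708 read -0.82, -0.40 and -0.31 forward and -0.88 and -0.61 reversed, negative on all arrays with overlapping orientations (-0.61 ± 0.25, SD, n = 5; limma adjusted p = 0.0013). Clone 2928 read -0.996, -0.45 and -1.05 forward and -0.22 and -0.15 reversed (-0.57 ± 0.43, SD, n = 5; adjusted p = 0.018). Clone 2566 read -0.997, -0.60 and -0.92 forward and -0.21 and -0.06 reversed (-0.56 ± 0.42, SD, n = 5; adjusted p = 0.0312). In clones 2928 and 2566 every forward array lay below both reversed ones, and the difference of the orientations passed, at -0.65 (adjusted p = 0.0301) and -0.70 (adjusted p = 0.038). Clone 1427 varied little, with 0.53, 0.46 and 0.53 forward and 0.46 and 0.52 reversed (0.50 ± 0.039, SD, n = 5; adjusted p = 0.00607). Clone 516 read 0.64, 0.50 and 0.40 forward and 0.58 and 0.39 reversed (0.50 ± 0.11, SD, n = 5; adjusted p = 0.0013). Clone 2402 read 0.50, 0.60 and 0.57 forward and 0.59 and 0.10 reversed, where array 5 stood below the rest (0.47 ± 0.21, SD, n = 5; adjusted p = 0.00607). On the B73 arrays the 3 negative clones averaged 0.09, -0.93 and -0.42, and the 3 positive ones -0.26, -0.02 and -0.36, in the order given. Clone 2928 was negative on both sets of arrays, and its difference between them did not pass (0.36, adjusted p = 0.118). Of the unnamed clones 1.28% passed for the mean, against 0.991% of the named ones.

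Set against the B73 arrays, which share the hybrid's RNA, the H99 mean differed in 35 of the 213 genes (16.4%), 13 with a higher and 22 with a lower value on the H99 arrays. Both orientations were averaged as deposited here, and the comparison was not run with the reversed arrays turned, so these calls hold for that reading only. GPC1 stood at 0.23 ± 0.14 on the H99 arrays and -0.16 ± 0.055 on the B73 arrays (SD, n = 5 each), a difference of 0.40 (SE 0.066, limma adjusted p = 0.00563). For gpc2 the values were 0.19 ± 0.08 and -0.12 ± 0.064 (SD, n = 5 each; difference 0.31, adjusted p = 0.00563), and for adh1 -0.21 ± 0.11 and 0.02 ± 0.07 (SD, n = 5 each; difference -0.24, adjusted p = 0.0233). The H99 and the B73 arrays lay apart in GPC1 and gpc2, and overlapped in adh1.

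ZAG3 had the lowest p of this comparison, with -0.10 ± 0.08 on the H99 arrays and 0.31 ± 0.025 on the B73 arrays (SD, n = 5 each; difference -0.42, limma adjusted p = 0.000318). The HMG-box gene MNB1b stood at -0.16 ± 0.11 and 0.25 ± 0.12 (SD, n = 5 each; difference -0.41, adjusted p = 0.00563), and HD6 at 0.27 ± 0.12 and -0.11 ± 0.12 (SD, n = 5 each; difference 0.38, adjusted p = 0.00892). The alpha-tubulins tua4 and TUA1 lay near 0 on the B73 arrays, at 0.01 and 0.02, and their differences of 0.12 and 0.11 did not pass (adjusted p = 0.0722 and 0.109). For hsp70-5 the means were -0.09 and -0.10 and did not differ detectably (difference 0.01, SE 0.077, adjusted p = 0.92). This H99 mean averages a forward mean of -0.21 and a reversed mean of 0.09, which differed (limma adjusted p = 0.0157). That call ended without any 1 of H99 arrays 2 to 5. The B73 arrays ran from -0.19 to -0.05, below both reversed H99 arrays (0.15 and 0.04).

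**Figure D5:**
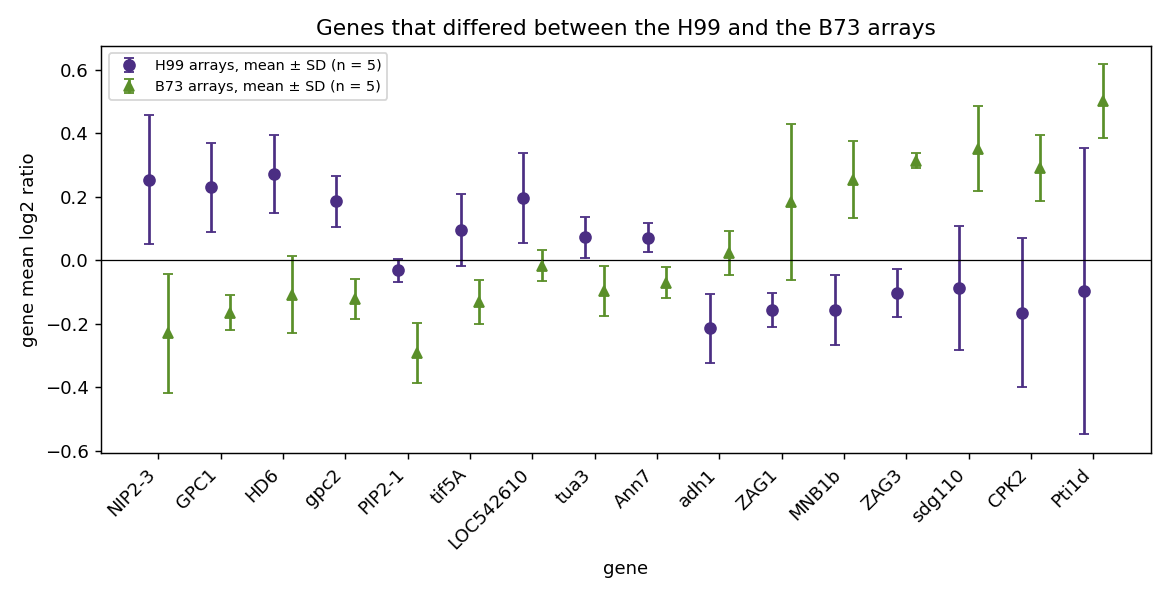
Gene mean log2 ratio (mean ± SD, n = 5 arrays each) on the H99 arrays (purple circles) and the B73 arrays (green triangles) for the 16 described genes whose means differed between both sets. From NIP2-3 to Ann7 the H99 mean is higher, and from adh1 to Pti1d lower. The SD on the H99 arrays is widest for Pti1d, where forward and reversed arrays had opposite signs.

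The plot of both inbreds shows ZAG3 with the narrowest spread on the B73 arrays and wide H99 bars for NIP2-3, sdg110, CPK2 and Pti1d. In these 4 genes and in LOC542610 the forward and reversed H99 means also differed. Without H99 array 2 the count fell to 16 genes, and it lay at 19 without array 1 or without array 3, at 20 without B73 array 1 or without B73 array 2, and at 22 without B73 array 3.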

How the data were processed

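The deposited values were log2 ratios of the 2 channels of each spot, with array medians between -0.001 and 0, so the authors had centred them before deposit. How they were scanned, background-corrected, normalized and filtered is not given in the sources used here, and channel intensities were not analysed here. Each 3 successive rows were averaged to 1 clone, since neighbouring spots correlated at 0.755 to 0.861 within such a group on the H99 arrays and at 0.196 to 0.319 between groups. Clones needed at least 3 values per inbred and 1 per orientation. Genes were named from the old platform annotation, and 208 of 213 genes were found in RefSeq's table.

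All 10 arrays were fitted as deposited with limma 3.58.1 under R 4.3.3; the model held 1 mean per inbred, or 1 per inbred and orientation. P-values were adjusted by Benjamini and Hochberg over 5357 clones or, for gene means, over 213 genes. The fit and adjustment of gene means in one table with the unnamed clones was added after the data were seen. SDs are between arrays and SEs from limma. The steps were tested on simulated data with independent noise for each clone. Spots of neighbouring clones correlated on the real arrays, so the simulation does not show how often calls here are false. The number of arrays limits the precision.

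Genes named were clones that passed for the mean, the 10 highest and 10 lowest means of genes with at least 3 clones, up to 6 per sign that passed forward, reversed or for their difference, and genes of the lists, 83 in all; MFS18 and the unnamed clones were chosen after their values were seen. Members and lists were chosen with earlier results of these data known. Replicate numbers did not pair the H99 and B73 arrays, with correlations of deviations from -0.294 to 0.309.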

Additional observations from a re-analysis of the deposited data

Results flagged for a closer look

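In groups of 5 arrays 2 of the 83 genes described had an H99 array far from the other 4, and chance gives this in about 1 of 20 groups. They were cgs1, of methionine synthesis, at -0.613 on array 3, and the glutathione S-transferase gene gst41, at 0.24 on array 3. The forward mean of cgs1 passed narrowly (-0.30, limma adjusted p = 0.0466), and 12 of the 20 alternatives ended that call, among them leaving out any 1 of H99 arrays 2 to 5 or of B73 arrays 1, 2, 4 and 5. Without array 3 it was -0.14 (adjusted p = 0.24).

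The H99 mean minus the B73 mean, tested in limma with the adjusted threshold of 0.05, differed for 16 of the genes described. It was positive for the aquaporin genes NIP2-3 (0.485) and PIP2-1 (0.262), for GPC1 (0.395) and gpc2 (0.308), for HD6 (0.381), tif5A (0.226), LOC542610 (0.213) and tua3 (0.168), and for the annexin gene Ann7 (0.142). It was negative for the kinase genes Pti1d (-0.599) and CPK2 (-0.457), for sdg110 (-0.44) and MNB1b (-0.41), for the MADS-box genes ZAG3 (-0.418) and ZAG1 (-0.34), and for adh1 (-0.237). For Pti1d, CPK2, sdg110, NIP2-3 and LOC542610 the forward and reversed H99 arrays also differed, and both sets of arrays share the hybrid's RNA. This comparison averaged both orientations as deposited and was not run with the reversed arrays turned.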

How the results depend on the processing

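Directions of the called means of the genes described held under the alternatives run, except that for print position. There the forward mean of tub6 turned to 0.1121. Turning the reversed arrays was run for the mean of the 5 arrays only, and by construction it would change the sign of every reversed mean. Counts of calls moved widely, and the cause was not tested. Leaving out 1 array at a time gave 14 to 101 clones for the mean, 224 to 821 forward, 5 to 124 reversed and 0 to 334 for the difference, and 0 to 7, 18 to 45, 0 to 7 and 0 to 30 genes, with 16 to 50 genes for H99 minus B73. With arrays scaled to one spread the clone counts for mean, forward, reversed and difference were 309, 1085, 754 and 799, and the gene counts 26, 63, 32 and 46. With quantile normalization they were 430, 1184, 815 and 906 clones, and 28, 62, 31 and 46 genes. With array weights they were 304, 2450, 561 and 1440 clones, and 14, 60, 20 and 43 genes, with 63 for H99 minus B73. An ordinary t-test with each feature's own variance, which borrows no spread from other features as limma does, was also run. With it 7, 177, 0 and 0 clones passed (750, 1331, 719 and 958 at an unadjusted p under 0.05), and 1 gene reversed and 7 for the difference. With the median of neighbouring rows removed 178 clones passed for the mean, 217 reversed and 399 for the difference, and 17 genes for the mean and 4 reversed. Each spot tested alone gave 126 for the mean and 1446 forward. With equal weight per orientation 303 clones and 24 genes passed for the mean. That setting used the fit with 1 mean per inbred and orientation, which leaves their disagreement out of the residual spread. The median residual SD over clones was 0.120 there, against 0.152 in the main fit of the mean. With the reversed arrays turned 41 clones passed for the mean, 4 positive and 37 negative. With only the 5 H99 arrays no gene passed for the mean (39 at an unadjusted p under 0.05) and 3 did reversed. With gene means in one table with the unnamed clones, an alternative chosen after seeing the data, 1 gene passed for the mean, 3 reversed and 10 for the difference.

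The replicate numbers share only their name between both sets of arrays; with the replicate block 61 clones and no gene passed for the mean in limma (35 at an unadjusted p under 0.05). The difference of the spread between H99 and B73 arrays was -0.0948 as the median absolute deviation and did not pass. The number of arrays limits the precision, with 2 behind each reversed mean, and signals over background were not analysed here.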
